A study of Saccharomyces cerevisiae with 25 samples.

Results

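Ergosterol is the main sterol of fungal membranes, and 10 genes of the late part of its synthesis were followed in total RNA of the budding yeast Saccharomyces cerevisiae, hybridised to 25 Affymetrix arrays. The genes were taken by name from the late pathway and not by a rule on their values, though earlier results of these data were known. They were ERG1, ERG2, ERG3, ERG5, ERG6, ERG11, ERG24, ERG25, ERG26 and ERG27. All 10 were measured, each by 1 probe set, among 5656 genes tested. The strains compared were, by their labels, null mutants for 1 subunit each of Ccr4-Not, which removes poly(A) tails from mRNAs and has further roles in transcription, and a wild-type strain. The labels name the null strains caf1, caf130, ccr4, not2, not3, not4 and not5, and they give no further genotype. Cells of all 8 strains were taken from exponential phase in glucose-rich medium (14 arrays). The wild type and 5 of the strains (labelled not2, not4, ccr4, caf1 and caf130) were also collected 30 min after the glucose had run out (11 arrays), here called depletion.

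These make 14 groups, of which 11 have 2 independently prepared samples. Depleted caf1 and exponential not4 and not5 have 1 array each, because the submitters discarded the other as problematic, so the fit assumes that these arrays vary like the rest. All comparisons with wild type in 1 condition share the same 2 wild-type arrays. Values are the deposited log2 levels, and array medians lay between 5.20 and 5.37. The level of one probe set cannot be set against that of another, so levels are compared for 1 gene at a time. Differences are given on the log2 scale with the SE of the limma fit, and p-values were adjusted by Benjamini-Hochberg over all 5656 genes of a comparison and called at an adjusted p under 0.05. A level is an average over a whole culture, in which a change in the share of cells and a change of RNA per cell cannot be told apart.

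The transcript of the deleted gene was low in the strain labelled for it, except for CAF130. Its level was 5.92 and 6.60 in exponential cells labelled caf130, against 5.60 and 5.30 in exponential wild type. Depleted cells labelled caf130 had 5.81 and 5.63, against 5.68 and 5.76 in depleted wild type. These are therefore called the arrays labelled caf130. TRP1, a tryptophan synthesis gene often used to mark deletions, had 7.27 and 7.69 in depleted cells labelled caf130 but 3.59 and 5.52 in exponential ones, so their response to depletion may not come from 1 strain. TRP1 read 6.73 to 8.89 in the caf1 and ccr4 arrays and 2.09 to 3.14 in the not2, not3, not4, not5 and wild-type arrays, so the caf1 and ccr4 deletions cannot be told apart from that marker.

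The pathway starts from squalene. ERG1 (YGR175C) encodes squalene epoxidase, the target of the antifungal terbinafine. After cyclisation to lanosterol, ERG11 (YHR007C) encodes the cytochrome P450 that removes a methyl group and is the target of azole antifungals, and ERG24 (YNL280C) encodes the reductase that follows it. ERG25 (YGR060W), ERG26 (YGL001C) and ERG27 (YLR100W) encode the methyl oxidase, the dehydrogenase and the keto reductase of a complex that removes the paired methyl groups of the sterol ring. ERG6 (YML008C) adds a methyl group to the side chain, ERG2 (YMR202W) shifts a double bond in the ring, and ERG3 (YLR056W) and ERG5 (YMR015C) are desaturases of the ring and the side chain. ERG1, ERG3, ERG5, ERG11 and ERG25 use molecular oxygen, and ERG3, ERG5, ERG11 and ERG25 contain or draw on heme or iron. In yeast the transcription factors Upc2 and Ecm22 activate many of these genes when sterol is short, and Hap1 and Rox1 link them to heme and oxygen.

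After glucose depletion 5 to 9 of the 10 genes fell in each of the 6 strains followed, and 0 rose. The 9 came from the arrays labelled caf130, which may not be of a single strain. In wild type 7 of the 10 fell and 0 rose, where 18.7% of all genes fell. The median change of the 10 was -1.06, against a median of 0.02 for all 5656 genes. ERG6 fell most, to 7.70 and 7.86 in depleted wild type, against 10.16 and 10.02 in exponential wild type. This is a change of -2.31 ± 0.23 (adjusted p = 2.11e-07), or a level 4.95-fold lower if the deposited scale is log2. ERG27 read 7.68 and 7.31 after depletion against 9.49 and 9.53 in exponential phase (-2.02 ± 0.35, adjusted p = 0.00011). ERG2 read 9.57 and 9.32 against 11.07 and 11.001 (-1.59 ± 0.23, adjusted p = 1.31e-05). For these 3 genes the arrays of the 2 conditions lay more than 1 unit apart.

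ERG3, ERG25, ERG24 and ERG11 fell less. ERG3, the ring desaturase, read 9.49 and 9.51 in depleted wild type against 10.94 and 10.71 in exponential wild type (-1.32 ± 0.25, adjusted p = 0.000288). ERG25 read 9.79 and 9.59 against 10.82 and 10.72 (-1.07 ± 0.24, adjusted p = 0.00148). For both, as for ERG24 and ERG11 next, the depletion arrays lay below the exponential ones. ERG24 read 7.06 and 6.89 against 8.12 and 7.93 (-1.04 ± 0.28, adjusted p = 0.00516), and ERG11 read 9.79 and 9.53 against 10.79 and 10.48 (-0.97 ± 0.24, adjusted p = 0.00339). Without wild-type exponential replicate 1 both genes lost their call, with changes of -0.95 for ERG24 and -0.82 for ERG11. ERG24 also lost it without wild-type depletion replicate 2 (-0.96).

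The first enzyme of the set, ERG1, did not pass the test in wild type, with 8.40 and 8.37 after depletion against 9.27 and 8.66 in exponential phase (-0.58 ± 0.30, adjusted p = 0.133, and 0.0382 after quantile normalization). Nor did ERG26, with 7.57 and 7.37 against 8.05 and 7.92 (-0.51 ± 0.31, adjusted p = 0.208). ERG5 read 7.15 and 7.16 after depletion against 7.19 and 6.79, and its arrays overlapped between the conditions (0.16 ± 0.37, adjusted p = 0.767). Among the 5 genes that use oxygen, 3 fell, and the median change of all 5 was -0.97. Among the other 5, 4 fell, and the median change of all 5 was -1.59. The difference between those medians was not tested.

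**Figure D1:**
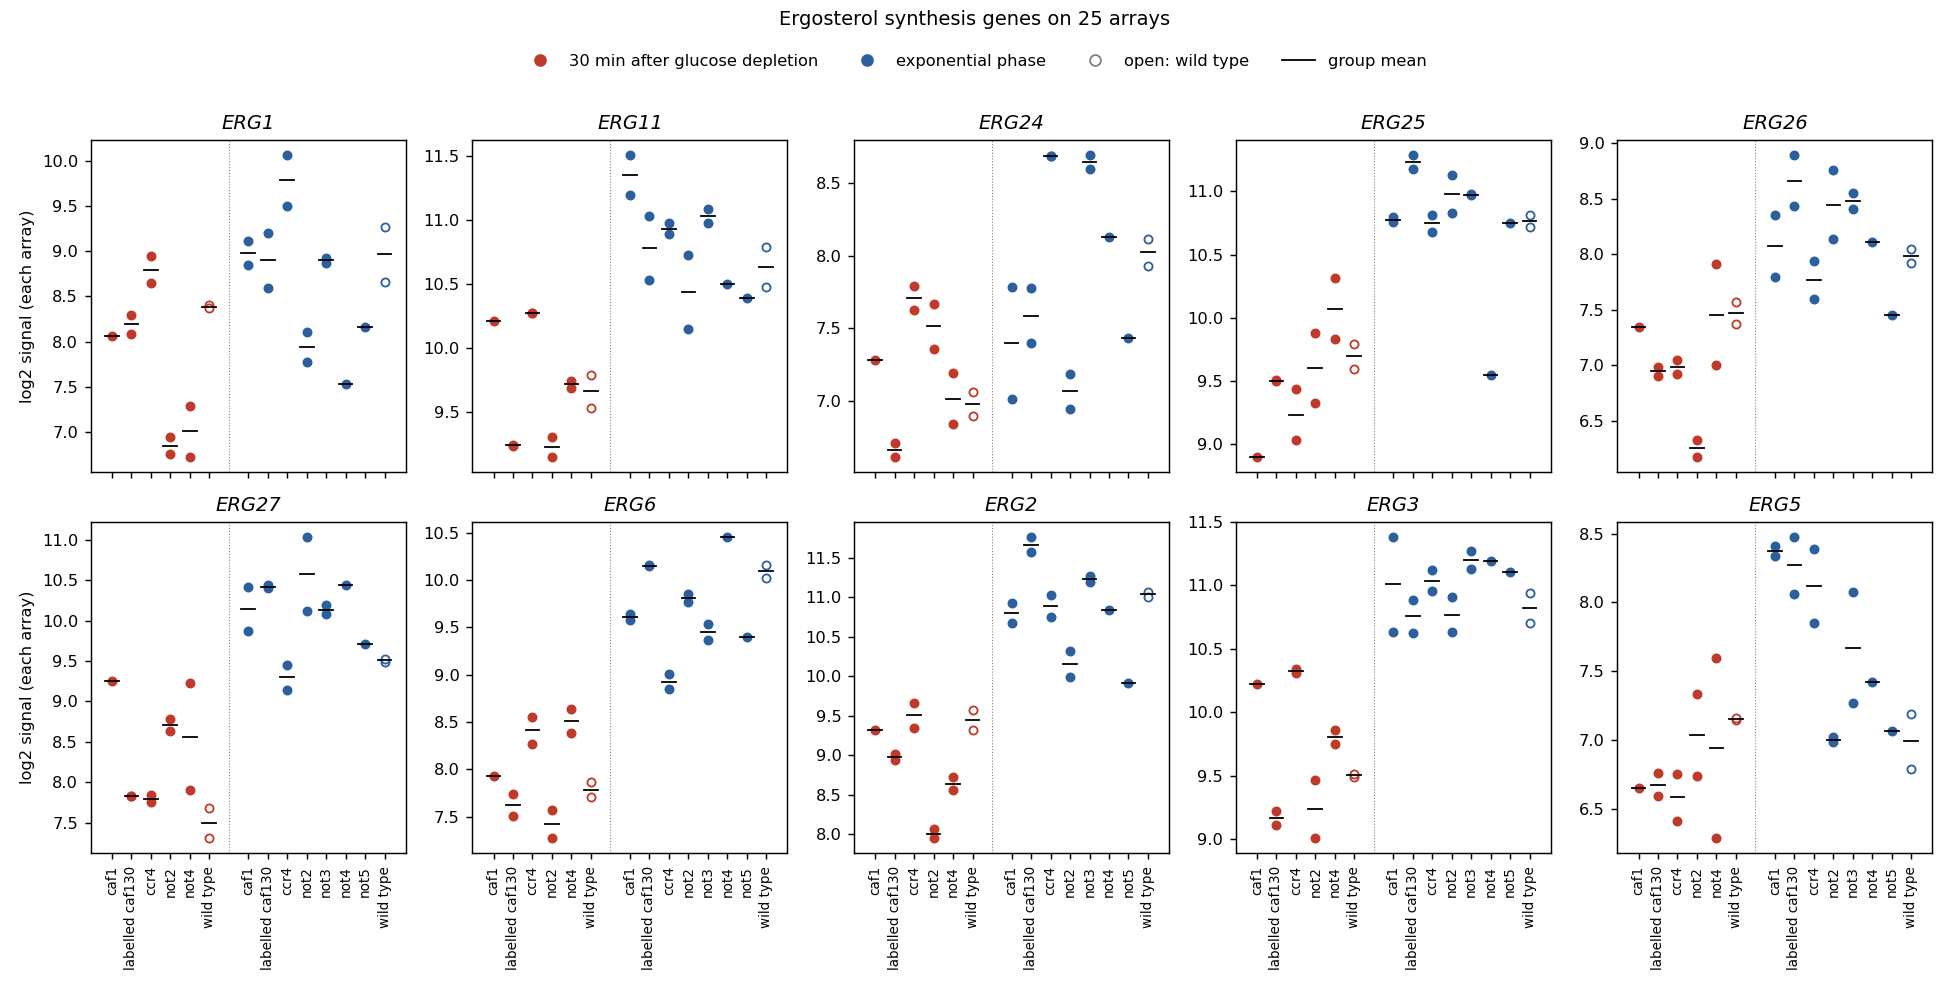
Deposited log2 level (vertical axis) of each of the 10 genes in every array, 1 panel per gene, with the depletion groups left of the exponential groups and wild type last in each condition. Each point is 1 array. For ERG2, ERG3 and ERG6 every depletion array lies below every exponential array.

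Genes of the set also fell in the 5 strains labelled as deletions. Over the 6 strains with both conditions, 42 of 60 values were called lower and 0 higher. In caf1, 5 of 10 genes fell, where 13.9% of all genes did. The median change of all 10, given for each strain, was -1.03 there. In the arrays labelled caf130, whose response may not come from a single strain, 9 fell (26.9% of all genes, median -1.65). In ccr4, 8 fell (13.3% of all genes, median -0.98). In not2, 8 fell (25.4% of all genes, median -1.46). In not4, 5 fell (18.3% of all genes, median -0.95). The medians of all genes in these comparisons lay between -0.18 and 0.22. ERG2 and ERG27 illustrate the range. ERG2 fell in all 6 strains, by 2.69 on the log2 scale in the arrays labelled caf130 and by 1.39 in ccr4. ERG27 fell in 5 strains, and its change in caf1, with 9.26 after depletion against 9.87 and 10.42, was -0.89 ± 0.43 (adjusted p = 0.123).

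ERG5, the side-chain desaturase, was not called in wild type and fell in 3 strains. It read 6.65 in depleted caf1 against 8.41 and 8.33 in exponential caf1 (-1.72 ± 0.45, adjusted p = 0.00722). In the arrays labelled caf130 it read 6.60 and 6.76 against 8.06 and 8.47 (-1.59 ± 0.37, adjusted p = 0.00132). In ccr4 it read 6.76 and 6.42 against 8.38 and 7.85 (-1.53 ± 0.37, adjusted p = 0.00328), and the adjusted p was 0.0584 without ccr4 exponential replicate 1. In not2 the arrays of both conditions overlapped (0.03 ± 0.37, adjusted p = 0.95).

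Of the 42 calls of a fall, 32 held under every alternative that could be run for them. These left out each array of a group of 2 in turn. The 1 depleted caf1 array and the 1 exponential not4 array could not be left out. Calls of a fall in those strains were therefore not tested without them. Apart from the ERG11 and ERG24 calls in wild type and the ERG5 call in ccr4, the calls lost were of ERG1, ERG3, ERG11 and ERG24 in ccr4, ERG24 in the arrays labelled caf130, ERG1 in not2 and ERG24 in not4. In ccr4 the number of genes lower was 4 to 5 when any 1 array was left out, against 8 with all arrays. There ERG3 and ERG11 lost their call on leaving out any 1 of the 4 ccr4 arrays, with adjusted p from 0.0614 to 0.168. ERG1 lost it without ccr4 exponential replicate 2 (adjusted p = 0.138) or ccr4 depletion replicate 2 (adjusted p = 0.121), and ERG24 without ccr4 exponential replicate 1 (adjusted p = 0.0552) or ccr4 depletion replicate 1 (adjusted p = 0.0769). ERG24 in the arrays labelled caf130 had an adjusted p of 0.0984 without exponential replicate 2 and 0.0608 without depletion replicate 1. ERG1 in not2 had 0.0574 without not2 exponential replicate 2, and ERG24 in not4 had 0.0634 without not4 depletion replicate 2.

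**Figure D2:**
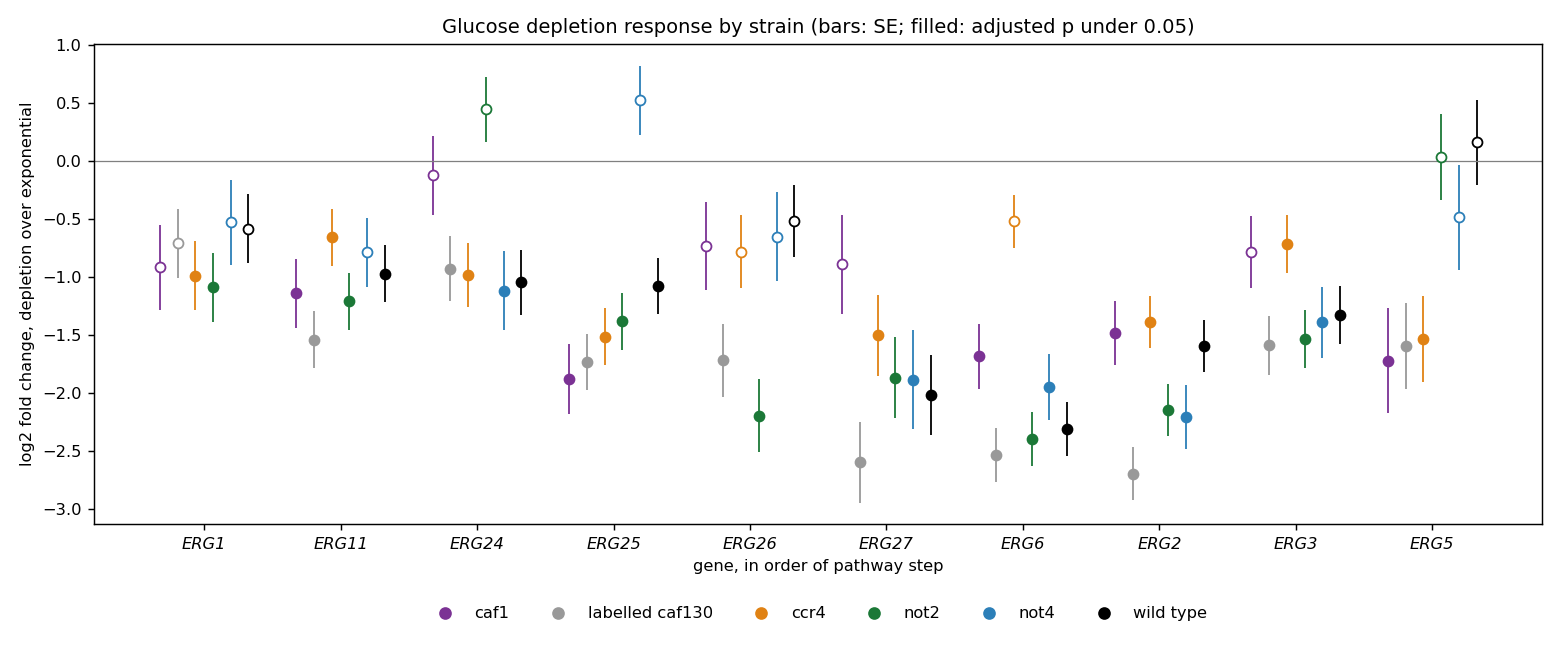
Change after depletion (log2 fold change, depletion minus exponential phase) of the 10 genes in the 6 strains with both conditions, with bars of 1 SE. Of the 60 values 42 were called lower and 0 higher, shown as filled points, and the 4 points above 0 (ERG24 and ERG5 in not2, ERG25 in not4 and ERG5 in wild type) were not called.

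Across all 25 arrays the 2 conditions separated without overlap for 3 of the 10 genes. The share of all genes that did so is not given here, so this count only describes the 10. The highest depletion array of ERG2 read 9.67 and the lowest exponential array 9.92. For ERG3 these were 10.34 and 10.62, and for ERG6 8.63 and 8.85. The other 7 genes overlapped. ERG1 and ERG24 overlapped most, with 7 of 11 depletion arrays above the lowest exponential array. ERG25 followed with 5, ERG5 with 4, ERG11 with 3, and ERG26 and ERG27 with 2 each. The ERG25 overlap came from the 1 exponential not4 array (9.55) alone. Every other exponential array read 10.68 or more for ERG25, and the highest depletion array read 10.31.

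The order of the 14 group means differed from gene to gene. The not2 depletion group was lowest for ERG1 (6.85), ERG2 (8.01), ERG6 (7.42), ERG11 (9.23) and ERG26 (6.25). The depletion group labelled caf130 was lowest for ERG3 (9.17) and ERG24 (6.66), ccr4 depletion for ERG5 (6.59), the 1 caf1 depletion array for ERG25 (8.90) and wild-type depletion for ERG27 (7.49). At the top stood ccr4 in exponential phase for ERG1 (9.78) and ERG24 (8.69), caf1 for ERG5 (8.37) and ERG11 (11.35), and the group labelled caf130 for ERG2 (11.67), ERG25 (11.23) and ERG26 (8.66). For ERG3 it was not3 (11.20), for ERG6 the 1 not4 array (10.45) and for ERG27 not2 (10.58), all in exponential phase.

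Except for ERG6 and ERG2, most neighbours in these orders were closer than the spread between replicates. Of the 13 gaps between neighbouring group means, 10 exceeded the pooled SD of replicates for ERG6 (0.13) and 8 for ERG2 (0.15). For ERG25 the number was 5, for ERG1 and ERG3 it was 4, for ERG11, ERG24, ERG26 and ERG27 it was 3, and for ERG5 (pooled SD 0.40) it was 1. Averaged over the 10 genes, each centred on its mean over groups, all 6 depletion groups lay below all 8 exponential groups. The depletion groups ran from -1.02 (not2) to -0.45 (ccr4), and the exponential groups from 0.13 (the not5 array) to 0.83 (labelled caf130).

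Set against depleted wild type, the not2 strain had 3 of the 10 genes lower and 1 higher, where 28% of all genes were called in either direction, a share not far from that of the 10. ERG1 read 6.94 and 6.76 in depleted not2 against 8.40 and 8.37 in depleted wild type (-1.53 ± 0.30, adjusted p = 0.000789). ERG2 read 8.07 and 7.95 against 9.57 and 9.32 (-1.44 ± 0.23, adjusted p = 0.000117). These were the 2 calls, of 20 made for the 10 genes in any strain against wild type, that held under every alternative. ERG26 read 6.33 and 6.18 against 7.57 and 7.37 (-1.22 ± 0.31, adjusted p = 0.00663, and 0.061 without wild-type depletion replicate 1). ERG27 was higher, with 8.78 and 8.63 in not2 against 7.68 and 7.31 in wild type (1.22 ± 0.35, adjusted p = 0.0129). Its adjusted p was 0.0527 without not2 depletion replicate 1 and 0.122 without wild-type depletion replicate 2.

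In exponential phase, on other arrays, not2 again had 3 genes lower and 1 higher than wild type, where 22.6% of all genes were called. ERG1 read 7.78 and 8.11 in not2 against 9.27 and 8.66 in wild type (-1.03 ± 0.30, adjusted p = 0.0185), and ERG2 read 9.99 and 10.32 against 11.07 and 11.001 (-0.88 ± 0.23, adjusted p = 0.00915). ERG24, the reductase after ERG11, read 6.94 and 7.19 against 8.12 and 7.93 (-0.96 ± 0.28, adjusted p = 0.0185). ERG27 read 10.12 and 11.04 against 9.49 and 9.53 (1.07 ± 0.35, adjusted p = 0.033). ERG1, ERG2 and ERG27 thus had the same direction in both conditions, with no array in common. ERG24 and ERG26, each called lower in 1 condition, lay above wild type in the other without a call. ERG24 averaged 7.51 in depleted not2 against 6.98 in depleted wild type. ERG26 averaged 8.45 in exponential not2 against 7.98 in exponential wild type. The exponential calls did not hold when single arrays were left out, though each of these genes kept its direction. Without wild-type exponential replicate 1 the adjusted p was 0.217 for ERG1, 0.0761 for ERG2, 0.133 for ERG24 and 0.143 for ERG27. Without not2 exponential replicate 1 it was 0.0999 for ERG1, 0.0693 for ERG2 and 0.0889 for ERG24. Without not2 exponential replicate 2 it was 0.0537 for ERG1, 0.0612 for ERG24 and 0.343 for ERG27, and without wild-type exponential replicate 2 it was 0.0557 for ERG24 and 0.106 for ERG27.

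Genes that mark mating type a moved with the not2 strain. All 7 a-specific genes were lower in not2 than in wild type in both conditions, with medians of -4.13 in exponential phase and -3.72 after depletion. Their summed signal on the log2 scale was 8.29 to 8.94 in exponential not2 against 12.54 to 12.77 in wild type, and 9.55 to 9.95 in depleted not2 against 13.72 to 14.09 in wild type. Of the 4 alpha-specific genes 0 were called in either condition. The part of this in the sterol genes was not tested.

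In depleted not4, 2 of the 10 genes were lower and 2 higher than in wild type, where 12.1% of all genes were called. ERG1 read 6.73 and 7.29 in not4 against 8.40 and 8.37 in wild type (-1.37 ± 0.30, adjusted p = 0.0048), and ERG2 read 8.72 and 8.56 against 9.57 and 9.32 (-0.81 ± 0.23, adjusted p = 0.0243). ERG6 was higher at 8.63 and 8.39 against 7.70 and 7.86 (0.73 ± 0.23, adjusted p = 0.0442), as was ERG27 at 9.23 and 7.90 against 7.68 and 7.31 (1.07 ± 0.35, adjusted p = 0.0493). The not4 arrays differed from each other by more than 1 unit in ERG27 and ERG5. Without not4 depletion replicate 1 the adjusted p was 0.0607 for ERG1, 0.202 for ERG6 and 0.547 for ERG27. Without wild-type depletion replicate 1 it was 0.201 for ERG2, 0.238 for ERG6 and 0.11 for ERG27, and without wild-type depletion replicate 2 it was 0.0758, 0.143 and 0.308 for these 3 genes. After quantile normalization it was 0.0567 for ERG2, and with the spread estimated from the depletion arrays only, ERG1 alone was called. The ERG27 call was also lost with no intensity trend (0.0541), with the mean of probe sets (0.0503) and with a replicate block (0.0628), in all under 7 of 10 alternatives, and the ERG6 call with the block (0.0607). Of the a-specific genes 4 of 7 were lower in this comparison, with a summed signal of 12.44 to 13.03 in not4 against 13.72 to 14.09 in wild type, and their part in it was not tested.

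In exponential phase the 1 not4 array had ERG1 at 7.54 against 9.27 and 8.66 in wild type (-1.43 ± 0.36, adjusted p = 0.0224), so that ERG1 was lower in not4 in both conditions. ERG25, the methyl oxidase, read 9.55 against 10.82 and 10.72 (-1.22 ± 0.30, adjusted p = 0.0177). These were the 2 calls of 10, where 8.22% of all genes were called. Without wild-type exponential replicate 1 the adjusted p was 0.137 for ERG1 and 0.0767 for ERG25, and without replicate 2 it was 0.0585 for ERG25. The 1 not5 array had ERG2 lower, at 9.92 against 11.07 and 11.001 (-1.12 ± 0.28, adjusted p = 0.022), where 5.23% of all genes were called. Its adjusted p was 0.127 without wild-type exponential replicate 1 and 0.0637 without replicate 2. ERG1 in not5 read 8.16 against 9.27 and 8.66 (-0.81 ± 0.36, adjusted p = 0.246). In not3 limma called 0 of the 10 genes, where 3.06% of all genes were called, and 2 had an unadjusted p under 0.05.

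In the deadenylase mutants ERG6 and ERG3 (ccr4) and ERG5 and ERG27 (caf1) were called against wild type. In exponential ccr4, ERG6 read 8.85 and 9.01 against 10.16 and 10.02 in wild type (-1.16 ± 0.23, adjusted p = 0.00412), the 1 call of 10, where 6.77% of all genes were called. Its adjusted p was 0.0806 without ccr4 exponential replicate 1 and 0.059 without wild-type exponential replicate 1. After depletion ERG6 was instead higher in ccr4, at 8.27 and 8.55 against 7.70 and 7.86 (0.63 ± 0.23, adjusted p = 0.0495), and so was ERG3, at 10.31 and 10.34 against 9.49 and 9.51 (0.82 ± 0.25, adjusted p = 0.0202). There 27.1% of all genes were called, so 2 of 10 is no more than the share of all genes. Neither depletion call held when any 1 of the 4 arrays was left out, with adjusted p from 0.0848 to 0.119 for ERG3 and from 0.0856 to 0.319 for ERG6. The ERG6 call was also lost with no intensity trend (0.0522), the depletion arrays only (0.134), dim genes left out (0.0504) and a replicate block (0.0639). In exponential ccr4, 5 of 7 a-specific and 3 of 4 alpha-specific genes were higher than in wild type. The summed signal of the alpha-specific genes was 10.15 to 10.75 in ccr4 against 7.14 to 7.27 in wild type, and its part in the sterol genes was not tested.

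In exponential caf1, ERG5 read 8.41 and 8.33 against 7.19 and 6.79 in wild type (1.38 ± 0.37, adjusted p = 0.0393), the 1 call of 10, where 4.46% of all genes were called. It was lost on leaving out any 1 of the 4 arrays, with adjusted p from 0.0893 to 0.25, and under quantile normalization (adjusted p = 0.0596). ERG5 read 8.38 and 7.85 in exponential ccr4 (1.13 ± 0.37, adjusted p = 0.0745) and 8.06 and 8.47 in exponential cells labelled caf130 (1.28 ± 0.37, adjusted p = 0.122), against the same wild-type arrays, and these values were not called. In the 1 caf1 depletion array ERG27 read 9.26 against 7.68 and 7.31 in wild type (1.77 ± 0.43, adjusted p = 0.0128), where 13.4% of all genes were called. Its adjusted p was 0.105 without wild-type depletion replicate 2 and 0.0571 with the spread of the depletion arrays only. For cells labelled caf130, limma called 0 of the 10 genes in exponential phase, where 0.672% of all genes were called and 4 of the 10 had an unadjusted p under 0.05. After depletion it called 0, where 0.0354% of all genes were called and 0 of the 10 had an unadjusted p under 0.05.

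**Figure D3:**
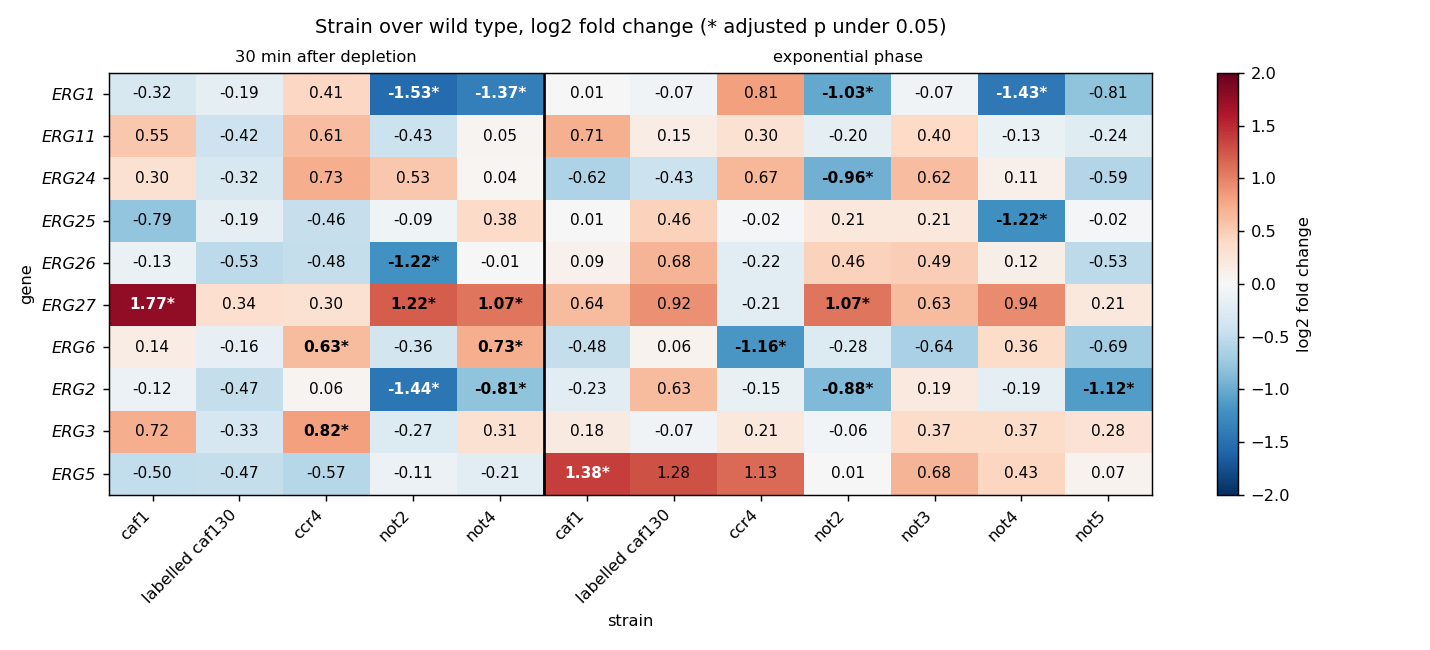
Difference from wild type (log2 fold change, strain minus wild type) of the 10 genes by strain, as coloured cells with the value printed, after depletion at the left and in exponential phase at the right. An asterisk marks an adjusted p under 0.05: ERG1 was called lower in not2 and not4 in both conditions, and ERG27 was called higher in depleted caf1, not2 and not4.

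The exponential NOT deletions (not2, not3, not4 and not5, averaged with equal weight) were also set against the deadenylase deletions caf1 and ccr4, which uses no wild-type array. The TRP1 level given above was high in the caf1 and ccr4 arrays and low in the NOT arrays. The class of deleted subunit therefore cannot be told apart from that marker here. Of the 10 genes 3 were lower and 1 higher in the NOT deletions, where 20.2% of all genes were called. ERG1 read 7.78 and 8.11 (not2), 8.87 and 8.93 (not3), 7.54 (not4) and 8.16 (not5) in the NOT deletions, against 9.11, 8.84, 9.50 and 10.06 in the caf1 and ccr4 arrays. The difference was -1.24 ± 0.20 (adjusted p = 0.000224), where the SE measures the spread between replicate arrays and not between strains. It held under every alternative that could be run, which left out neither the not4 nor the not5 array. ERG1 averaged 8.90 in not3, near caf1 (8.98) and below ccr4 (9.78), and the not3 arrays lay above 1 caf1 array. ERG5 was lower (-0.95 ± 0.24, adjusted p = 0.0108, and 0.0589 without ccr4 exponential replicate 1). So was ERG11 (-0.55 ± 0.16, adjusted p = 0.0215, and 0.0774 after quantile normalization). ERG11 lost its call too without caf1 exponential replicate 2 (adjusted p = 0.0793) or ccr4 exponential replicate 1 (0.0508) or 2 (0.068). ERG6 was higher (0.51 ± 0.15, adjusted p = 0.0236), and its adjusted p was 0.0703 without caf1 exponential replicate 1 and 0.0804 without ccr4 exponential replicate 1. Single strains did not all follow these averages. ERG6 averaged 9.45 in not3 and read 9.40 in not5, both below caf1 (9.61). It averaged 9.81 in not2, read 10.45 in the 1 not4 array and averaged 8.93 in ccr4. ERG11 averaged 11.03 in not3, above ccr4 (10.93) and below caf1 (11.35). In not2 (10.44), not4 (10.50) and not5 (10.39) ERG11 was below both. All 4 alpha-specific genes and 6 of 7 a-specific genes were lower in the average of the NOT deletions, but not in each strain alike. The summed a-specific signal was 8.29 to 8.94 in not2, but 13.40 to 13.55 in not3, 12.78 in not4 and 12.85 in not5. It was 12.86 to 13.18 in caf1 and highest in ccr4. The summed alpha-specific signal was 10.15 to 10.75 in ccr4, but 7.26 to 8.29 in caf1. In the NOT deletions it was 6.43 to 7.14 (not2), 7.65 to 8.07 (not3), 6.84 (not4) and 7.92 (not5). The part of these mating-type genes in the sterol genes was not tested.

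Whether a strain responded to depletion differently from wild type was tested as a difference of responses. In ccr4 1 of 10 genes had a higher and 1 a lower response, where 19.4% of all genes were called, a share close to that of the 10. ERG6 changed by -0.52 ± 0.23 in ccr4 (adjusted p = 0.0839) against -2.31 ± 0.23 in wild type, a difference of 1.79 ± 0.33 (adjusted p = 0.00158), which held under every alternative. ERG5 changed by -1.53 in ccr4 against 0.16 in wild type (-1.69 ± 0.52, adjusted p = 0.0291). The ERG5 difference was of like size, without a call, in caf1 (-1.88 ± 0.58, adjusted p = 0.0938) and in cells labelled caf130 (-1.75 ± 0.52, adjusted p = 0.311), against the same wild-type arrays. In not2 the genes were ERG24, which changed by 0.45 against -1.04 in wild type (1.49 ± 0.39, adjusted p = 0.028), and ERG26, which changed by -2.19 against -0.51 (-1.68 ± 0.44, adjusted p = 0.0278), where 6.93% of all genes were called. In not4 it was ERG25, which changed by 0.52 against -1.07 in wild type (1.60 ± 0.39, adjusted p = 0.0246), where 4.17% of all genes were called. Its depletion arrays read 10.31 and 9.83 and its 1 exponential array 9.55.

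Of these called differences, the last 4 did not hold when single arrays were left out, though each kept its direction. ERG5 in ccr4 lost its call on leaving out 6 of the 8 arrays in turn, with adjusted p of 0.0513 to 0.13. ERG24 in not2 lost it on leaving out 7 of 8 (0.0506 to 0.0988), ERG26 in not2 on leaving out 5 of 8 (0.0606 to 0.12), and ERG25 in not4 on leaving out any of the 4 wild-type arrays (0.0613 to 0.0967). In caf1 0 of the 10 were called (2.37% of all genes, 2 of the 10 with an unadjusted p under 0.05). In the arrays labelled caf130, 0 were called too (0.0354% of all genes, 3 of the 10 with an unadjusted p under 0.05).

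Other genes of the pathway were called in both directions after depletion of the wild type, where 18.7% of all genes fell and 20.3% rose. Of 9 mevalonate pathway genes, which make the isoprenoid precursors of squalene, 5 fell after depletion and 0 rose, with a median of -1.01. They were ERG12, mevalonate kinase (-1.45 ± 0.40, adjusted p = 0.00693), ERG10, which joins acetyl-CoA units (-1.34 ± 0.32, adjusted p = 0.0022), HMG1, an HMG-CoA reductase (-1.29 ± 0.34, adjusted p = 0.00496), ERG20, farnesyl diphosphate synthase (-1.18 ± 0.36, adjusted p = 0.0124) and ERG13, HMG-CoA synthase (-1.01 ± 0.32, adjusted p = 0.015). The count was 2 to 5 when 1 wild-type array was left out, with ERG12, ERG13 and ERG20 lost without exponential replicate 1 or depletion replicate 2. Of 6 further genes of the late sterol pathway, 2 fell and 2 rose, which for so few genes is not far from the shares of all genes. CYB5, cytochrome b5, fell (-2.57 ± 0.35, adjusted p = 8.51e-06), as did ERG4, which encodes the last reductase (-0.96 ± 0.31, adjusted p = 0.0199). ERG9, squalene synthase, rose (1.18 ± 0.25, adjusted p = 0.00088), as did ERG28, a scaffold of the complex that holds ERG25, ERG26 and ERG27 (1.18 ± 0.37, adjusted p = 0.0156). The ERG4 and ERG28 calls were each lost on leaving out 3 of the 4 wild-type arrays in turn.

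Of 9 sterol regulators, 3 fell and 2 rose in wild type, not far from the 18.7% and 20.3% of all genes. UPC2, the activator of sterol genes, read 4.08 and 3.99 after depletion against 5.17 and 4.81 in exponential phase (-0.96 ± 0.29, adjusted p = 0.0136, lost on leaving out 3 of the 4 arrays in turn). ROX1, a repressor of hypoxic genes, read 6.14 and 6.06 against 4.69 and 3.97 (1.77 ± 0.36, adjusted p = 0.000621). NSG1 and NSG2, which stabilise HMG-CoA reductase, changed in opposite directions (NSG1 by -1.30 ± 0.28, adjusted p = 0.000873, and NSG2 by 1.12 ± 0.28, adjusted p = 0.00282, and 0.055 without wild-type exponential replicate 1). ECM22, the relative of UPC2, changed by 0.14 ± 0.32 (adjusted p = 0.767) and HAP1, the heme-responsive factor, by -0.28 ± 0.45 (adjusted p = 0.661). UPC2 was also lower in exponential ccr4, at 3.58 and 3.20 against 5.17 and 4.81 in wild type (-1.60 ± 0.29, adjusted p = 0.00235). Of all genes on the same array, 12.6% and 7.11% read lower than UPC2 in exponential ccr4, and 16.5% and 15.9% in depleted wild type. Both falls of UPC2 thus ended among the dimmer genes, where signal close to background bounds how far a level can be seen to fall.

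Of 11 hypoxic and anaerobic genes, 4 fell and 2 rose in depleted wild type, where 18.7% of all genes fell and 20.3% rose. DAN1, a cell wall mannoprotein of anaerobic cells, changed by -4.47 ± 0.33 (adjusted p = 9.33e-09), ANB1, a translation factor of hypoxic cells, by -3.28 ± 0.34 (adjusted p = 3.14e-07) and TIR1, another cell wall mannoprotein, by -2.95 ± 0.28 (adjusted p = 1.05e-07). CYC7, the hypoxic form of cytochrome c, rose by 4.73 ± 0.52 (adjusted p = 7.66e-07). The summed signal of the 11 genes on the log2 scale was 11.67 to 11.92 after depletion against 12.98 to 13.21 in exponential phase, the highest of any group. Of 8 heme synthesis genes 1 rose and 0 fell (median 0.25), and of 10 genes of sterol uptake and storage 2 rose and 1 fell (median -0.03).

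In depleted not2, where 28% of all genes were called against wild type in either direction, 4 of 6 further late genes were lower and 0 higher, led by NCP1, the reductase that serves squalene epoxidase and the P450 enzymes (-2.10 ± 0.37, adjusted p = 0.000326), and ERG4 (-1.47 ± 0.31, adjusted p = 0.00174). ERG9 (-0.81 ± 0.25, adjusted p = 0.022) and ERG7, lanosterol synthase (-0.93 ± 0.34, adjusted p = 0.0483), lost their call on leaving out 3 of 4 arrays in turn. Of 9 mevalonate genes 2 were lower and 1 higher, a share near that of all genes. MVD1, the decarboxylase that ends the mevalonate steps, averaged 6.34 ± 0.44 in not2 against 8.60 ± 0.27 in wild type (SD, n = 2 each), a difference of -2.26 ± 0.27 (adjusted p = 7.3e-06). ERG13 averaged 6.10 ± 0.30 against 8.19 ± 0.17 (SD, n = 2 each), a difference of -2.09 ± 0.32 (adjusted p = 7.08e-05). ERG8, phosphomevalonate kinase, was higher (0.80 ± 0.28, adjusted p = 0.0408), and lost its call without not2 depletion replicate 1 or either wild-type array. The response of MVD1 to depletion differed as well, with -1.89 ± 0.27 in not2 (adjusted p = 1.33e-05) against -0.26 ± 0.27 in wild type (adjusted p = 0.486). That difference was -1.63 ± 0.39 (adjusted p = 0.0152, and 0.0849 without wild-type exponential replicate 2 or 0.0975 without wild-type depletion replicate 1). HEM13, the oxygen-dependent step of heme synthesis, was lower as well (-2.69 ± 0.34, adjusted p = 1.15e-05).

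**Figure D4:**
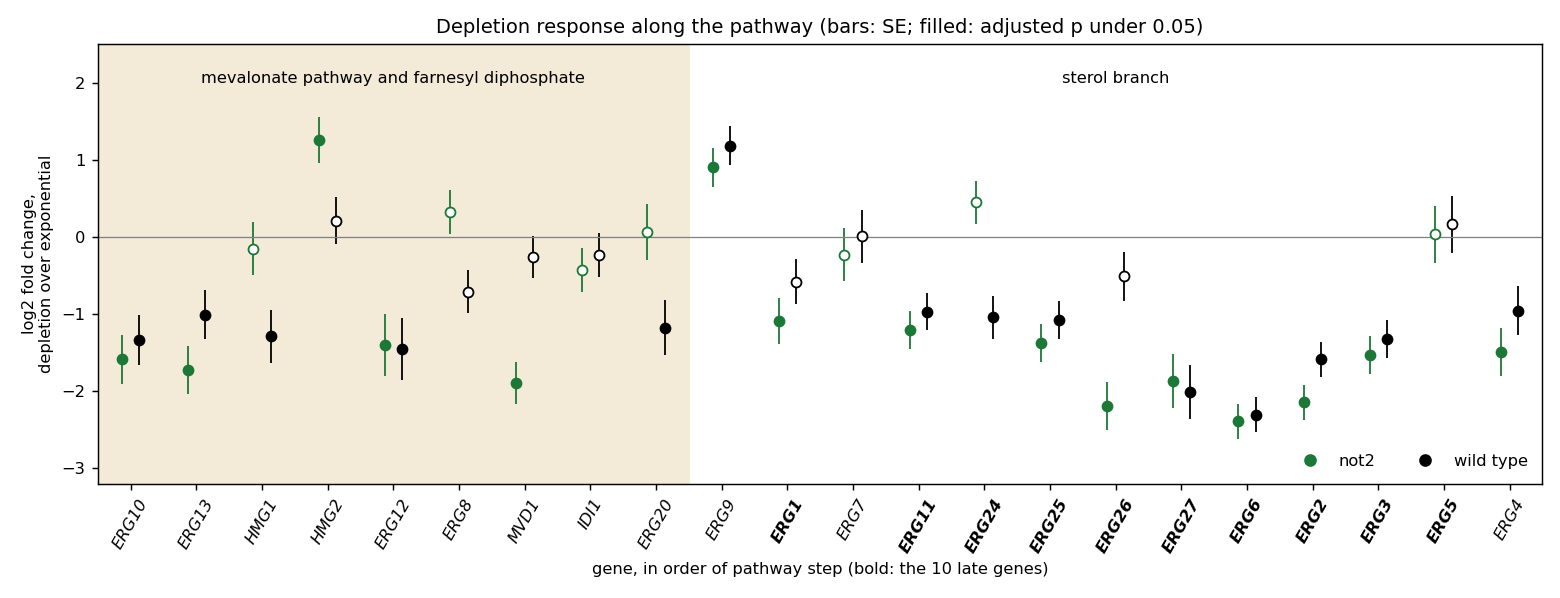
Change after depletion (log2 fold change, depletion over exponential phase, with bars of 1 SE) in not2 and in wild type for genes in the order of the pathway, from the mevalonate steps at the left to the sterol branch at the right. Filled points have an adjusted p under 0.05: ERG9 rose in both strains, and MVD1 changed by -1.89 in not2 against -0.26 in wild type.

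The 10 genes were compared with all others by the Pearson correlation of 14 group means with the mean of the 10 centred genes. The non-member genes most like them were MES1 (0.978), LIA1 (0.977), NOP56 (0.975), TEF4 (0.975) and PGM1 (0.974). The group means share arrays, normalization and the split between conditions, so these values describe the ordering of groups only. Among the 10, each against the mean of the other 9, the highest values were those of ERG2 (0.943), ERG11 (0.920) and ERG3 (0.897). ERG26 (0.857), ERG6 (0.848), ERG27 (0.754), ERG25 (0.732) and ERG5 (0.701) followed, and ERG24 (0.588) and ERG1 (0.543) were lowest. Over the 8 exponential groups alone the value was 0.861 for ERG2, 0.665 for ERG11 and 0.651 for ERG5, whereas ERG3 (-0.18), ERG6 (-0.21) and ERG27 (-0.09) were below 0.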

How the data were processed

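Total RNA of 25 samples was hybridised to 1 Affymetrix array each. The authors deposited 1 table of log2 values for 9275 probe sets, from 1.36 to 13.94, with 0 missing. The log base was inferred from the values, and how they were normalized, and with which software, is not given in the sources used here. Of the probe sets, 6504 had 1 gene symbol, 328 several and 2443 none in the platform annotation, and those with 1 were used. Where a gene had several probe sets (315 genes), the one with the highest mean was taken. All 5656 genes tested were found in the R64 annotation.

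Values were used as deposited. With limma 3.58.1 (R 4.3.3), 1 linear model with a mean for each of 14 groups was fitted over the 25 arrays, with moderated variances that follow intensity (residual degrees of freedom 11, prior 9.03). It was also run on simulated data, the results of which are not given here. P-values were adjusted by Benjamini-Hochberg in each of 24 comparisons with a threshold of 0.05. Precision is limited by how few arrays a group has.

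The 10 genes and the other gene lists were chosen with earlier results of these data known. All 10 are named. From other lists, up to 4 called genes per comparison were named by size, with UPC2, ECM22, HAP1 and ROX1 always, and further called genes were added after their values were seen. Alternatives were quantile normalization, no intensity trend, the arrays of 1 condition only and dim genes left out (5432 genes kept). Further ones were the mean of a gene's probe sets, a replicate block and leaving out each array of a group of 2. The 3 arrays alone in their group could not be left out. Figures were drawn with Python 3.11.15 and matplotlib 3.10.9. Sequences and promoter motifs were not analysed here.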

Additional observations from a re-analysis of the deposited data

Results flagged for a closer look

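The response to depletion differed from that of wild type, by the test of the difference itself, for 5 gene and strain pairs. In ccr4 the difference was 1.79 ± 0.33 for ERG6 (adjusted p = 0.00158), with a response of -0.52 in ccr4 and -2.31 in wild type. It was -1.69 ± 0.52 for ERG5 (adjusted p = 0.0291), with -1.53 in ccr4 and 0.16 in wild type. For ERG5 the difference was -1.88 in caf1 and -1.75 in the arrays labelled caf130, and neither was called. In not2 it was 1.49 ± 0.39 for ERG24 (adjusted p = 0.028), with 0.45 in not2 and -1.04 in wild type, and -1.68 ± 0.44 for ERG26 (adjusted p = 0.0278), with -2.19 in not2 and -0.51 in wild type. In not4 it was 1.60 ± 0.39 for ERG25 (adjusted p = 0.0246), with 0.52 in not4 and -1.07 in wild type, where the exponential not4 group is 1 array. All 5 differences share the same 4 wild-type arrays.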

How the results depend on the processing

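Of 71 calls for the 10 genes over all comparisons, 36 held under every alternative, 35 were lost on leaving out 1 array and 0 reversed. Quantile normalization ended 5, no intensity trend 3, the arrays of 1 condition only 5 of the 24 it could test, dim genes left out 1, the mean of probe sets 1 and the replicate block 4 of the 52 it could test. Uncalled values became calls in 12 cases. The cause was not tested. The 3 arrays alone in their group could not be left out, so a call that held did so under the alternatives that could be run. Against exponential wild type, the count in caf1 was 0 in place of 1 under quantile normalization and 0 with the replicate block, and in ccr4 it was 2 in place of 1 with the exponential arrays only. Against depleted wild type, the count in caf1 was 2 in place of 1 under quantile normalization and 0 with the depletion arrays only. In ccr4 it was 1 in place of 2 with no intensity trend, the depletion arrays only, dim genes left out or the replicate block, and in not4 1 in place of 4 with the depletion arrays only and 2 with the replicate block. The depletion response of caf1 had 8 calls in place of 5 under quantile normalization. Leaving out 1 array at a time, the counts against exponential wild type were 0 to 0 in caf1, 0 to 1 in ccr4, 0 to 2 in not2, 0 to 1 in not4 and 0 to 0 in not5. Against depleted wild type they were 0 to 1 in caf1, 0 to 0 in ccr4, 3 to 4 in not2 and 1 to 4 in not4. For the depletion responses they were 5 to 6 in caf1, 8 to 10 in the arrays labelled caf130, 4 to 5 in ccr4, 7 to 8 in not2, 4 to 7 in not4 and 5 to 7 in wild type. For the differences of responses they were 1 to 2 in ccr4, 0 to 2 in not2 and 0 to 1 in not4, and for the NOT deletions against caf1 and ccr4 1 to 4. Replicate numbers did not pair the samples in one way over all groups. Over 55 pairs of groups the correlation of same-numbered deviations ran from -0.55 to 0.47, with a median of -0.02, and 14 were over 0.1. Whether some groups share a batch was not tested. Quantile normalization moved the median of all genes by -0.19 in the depletion response of ccr4, which is the largest such shift.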
